A study of Mus musculus with 17 samples.

Results

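Open chromatin was described at 8 genes of the Akt and mTOR pathway (Pdpk1, Akt1, Akt2, Mtor, Rptor, Rictor, Tsc1 and Tsc2) in neurons of the mouse nucleus accumbens. A peak is a stretch of DNA in which a library's transposase insertions exceeded its background. Peaks that overlapped by 1 bp or more across the 17 libraries were merged into regions. Members were the regions that overlapped a gene body, or its flanks of 5 kb, in the mm10 annotation. They were 252 of 281189 regions, and 116 of them were among the 147420 regions called in at least 2 libraries of 1 group, which were kept. The list was chosen by peak calls in the 6 groups, in which a Pdpk1 promoter had differed between libraries, so the 3 kept regions within 1 kb of a Pdpk1 start site are described below without a test.

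ATAC-seq was run on neuronal nuclei, sorted by the NeuN antigen, from bilateral nucleus accumbens of C57BL/6 mice aged 52 to 54 days. Cocaine groups received 10 mg/kg by intraperitoneal injection 1 hour earlier, and the controls carry the label control with no agent named. Per the study's methods, controls were given no cocaine and were the untreated baseline, and no injection of them is described. Injection, handling and the hour that followed therefore cannot be told apart from cocaine in these comparisons. Diestrus (low estrogen) and proestrus (high estrogen) females gave 3 control and 3 cocaine libraries each, and males gave 3 control and 2 cocaine libraries. Each library pooled 3 animals, so the spread between libraries is that between pools. For diestrus cocaine library 2 the estrous stage was missing from the labels and was read from its title.

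In this pathway Pdpk1 encodes PDK1, the kinase that phosphorylates Akt at the plasma membrane once phosphoinositide 3-kinase has been activated, and Akt1 and Akt2 encode forms of that kinase. Akt inhibits the complex of Tsc1 and Tsc2, which turns off the small GTPase Rheb, the direct activator of the mTOR kinase (Mtor). Rptor encodes the scaffold of mTOR complex 1, which promotes protein synthesis, and Rictor that of mTOR complex 2, which itself phosphorylates Akt. In neurons the pathway is known for its part in dendrite growth, synaptic plasticity and responses to dopamine receptor signalling.

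Libraries held 75458 to 157005 peaks, and their background pileup, a measure of relative depth, ranged from 6.26 to 9.55 reads. The share of all kept regions that a library called was lowest in male cocaine libraries (36.7% to 42.04%) and highest in male controls (64.6% to 70.7%), and females ranged from 45.6% to 66.1%. Promoters of 5 neuronal and 9 medium spiny neuron markers, among them Rbfox3, Drd1 and Drd2, were called in all 17 libraries. Markers of other cells varied. Of 4 microglial promoters, Cx3cr1 and C1qa were called in none, Csf1r in 12 and Aif1 in 17 libraries, and of 3 endothelial promoters, Cldn5 and Flt1 in none and Pecam1 in 13. The astrocyte promoters Gfap, Aqp4 and Aldh1l1 were called in 16, 4 and 4 libraries, the oligodendrocyte-lineage promoter Pdgfra in 16, those of the oligodendrocyte genes Mog and Mag in 1 proestrus cocaine library, and those of the cortical genes Slc17a7, Neurod2, Neurod6 and Tbr1 in 17, 9, 5 and 12 libraries. Male cocaine libraries called 2 of 5 cortical marker promoters and male controls all 5. The part of depth and of other cells in the results was not tested.

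The sequences that carry the main results were read from GRCm38 (mm10) over the 100 bases on either side of a region's summit, on the strand of the gene and 5′ to 3′. Bases inside a transcript's untranslated region were left off. Capitals mark matches on either strand to GGGCGG (GC box), CCGGAAG (ETS), GTAAACA (FOXO), CACGTG (E-box), TGACTCA or TGAGTCA (AP-1) and TGACGTCA (cAMP response element). The first 3 lines are the main Pdpk1 start-site region, the weaker Pdpk1 region at the gene's 5′ end and the Pdpk1 intron region with the largest difference between cocaine and control males among the 28 tested. The next are the Akt2 region that fell after cocaine in both female stages, the Mtor promoter, the Rictor promoter that rose in diestrus, and a Rictor intron region called after cocaine in proestrus.
Pdpk1 main start sites, chr17:24141596-24141786, minus strand: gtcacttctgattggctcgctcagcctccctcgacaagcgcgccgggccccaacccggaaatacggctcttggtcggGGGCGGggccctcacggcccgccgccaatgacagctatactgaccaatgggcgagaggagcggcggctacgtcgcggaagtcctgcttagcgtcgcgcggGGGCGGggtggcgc
Pdpk1 5′ end, chr17:24152242-24152442, minus strand: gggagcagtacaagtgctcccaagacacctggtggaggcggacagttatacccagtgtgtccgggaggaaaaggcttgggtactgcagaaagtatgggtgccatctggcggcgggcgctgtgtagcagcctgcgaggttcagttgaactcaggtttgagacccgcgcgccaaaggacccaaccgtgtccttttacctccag
Pdpk1 intron, chr17:24108969-24109169, minus strand: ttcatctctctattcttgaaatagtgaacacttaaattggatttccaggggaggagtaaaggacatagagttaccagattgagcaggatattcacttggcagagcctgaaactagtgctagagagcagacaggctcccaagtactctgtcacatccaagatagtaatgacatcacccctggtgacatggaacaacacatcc
Akt2 intragenic, chr7:27601793-27601993, plus strand: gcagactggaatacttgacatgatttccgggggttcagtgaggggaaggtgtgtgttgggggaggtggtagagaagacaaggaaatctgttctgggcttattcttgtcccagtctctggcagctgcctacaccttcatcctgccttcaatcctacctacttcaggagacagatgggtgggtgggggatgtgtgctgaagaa
Mtor promoter, chr4:148448329-148448529, plus strand: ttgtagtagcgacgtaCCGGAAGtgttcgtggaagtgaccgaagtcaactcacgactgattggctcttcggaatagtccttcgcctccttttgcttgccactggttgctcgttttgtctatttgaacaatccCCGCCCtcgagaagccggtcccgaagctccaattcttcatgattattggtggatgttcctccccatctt
Rictor promoter, chr15:6708156-6708356, plus strand: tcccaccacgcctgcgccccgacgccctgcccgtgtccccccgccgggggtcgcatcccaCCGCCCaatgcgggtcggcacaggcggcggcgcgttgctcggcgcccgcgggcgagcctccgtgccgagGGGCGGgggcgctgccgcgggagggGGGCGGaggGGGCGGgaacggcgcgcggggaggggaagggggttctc
Rictor intron, chr15:6717094-6717294, plus strand: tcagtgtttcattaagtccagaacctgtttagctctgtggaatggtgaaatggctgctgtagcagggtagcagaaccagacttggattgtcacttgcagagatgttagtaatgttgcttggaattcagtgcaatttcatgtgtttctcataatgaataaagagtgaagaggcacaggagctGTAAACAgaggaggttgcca

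The Rictor promoter window was the richest in G and C (82.1%, 32 CpG dinucleotides, 4 GC boxes), followed by the main Pdpk1 window (69.6%, 24 CpG, 2 GC boxes). The Mtor window (50.2%) held 1 ETS and 1 GC box match, and the Rictor intron window (42.8%) held no CpG and 1 FOXO match. None of the 6 motifs was found in the Pdpk1 intron window (43.8% GC), the Akt2 window (52.2%) or the window at the Pdpk1 5′ end (58.7%), which says only that these letters are not there. Over windows of equal length at all kept regions, the GC box was found in 11 of 116 member windows (9.48%) and in 8.995% of all windows, AP-1 in 12 (10.3% against 10.1%), ETS in 4 (3.45% against 1.76%), E-box in 5 (4.31% against 3.24%), FOXO in 2 (1.72% against 2.02%) and the cAMP response element in 0 (0.498% of all).

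All 8 genes had a region within 1 kb of a start site that was called in all 17 libraries. The same was true of 59 of 63 other genes of the pathway (93.7%) and of 12358 of 21728 protein-coding genes (56.9%). The exceptions among the 63 were Prr5, a partner of Rictor (16 libraries), its relative Prr5l (1), Eif4ebp1, the translation repressor that mTOR complex 1 phosphorylates (5, of which 3 were the male controls), and Castor1, an arginine sensor (2). Of the 116 kept member regions, 22 lay within 1 kb of a start site, 61 in introns, 20 over exons, 5 upstream and 8 downstream. The 30 called in all 17 libraries were 13 of the 22 at start sites, 8 of the 20 over exons, 6 of the 61 in introns, 2 upstream and 1 downstream.

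Fold enrichment, the pileup at a peak's summit divided by the library's background pileup, with a small constant added to each, was the level used. Where a region held several peaks, the strongest was taken. Over the 30 regions called everywhere, the median was 6.64 (59 reads at the summit) and the range 2.53 to 38.1. In the 86 kept regions called in only some libraries the median was 3.13 (27 reads), with a lowest value of 17 reads, so that most such calls lay near the limit at which a peak could be called. A region without a call may hold reads, and a missing call is read as not called at this depth. The remaining 136 regions were not kept, and 98 of them were called in a single library.

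Pdpk1 (chr17:24073680-24150924, minus strand) held 35 regions, of which 12 were kept and 4 were called in all libraries. The annotation places 11 start sites in the gene, 5 of which, at 24141553 to 24141595, lay under a peak in all 17 libraries. Their region (chr17:24138619-24145833) had the highest median fold enrichment of the 30 regions, 27.9. Fold enrichment there was 25.6, 33.7 and 30.9 in diestrus controls and 38.1, 29.4 and 16.9 after cocaine, 26.4, 27.96 and 28.6 in proestrus controls and 21.4, 28.1 and 17.8 after cocaine, and 27.9, 22.03 and 25.5 in male controls and 28.6 and 25.2 after cocaine. Every cocaine group overlapped its controls. The site 24140807, further into the gene, lay under a peak in 13 libraries, namely all 12 female libraries, no male control and 1 of 2 male cocaine libraries. The site 24141128 was covered in 16.

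The 5′ end of the longest Pdpk1 transcripts, at 24150916 and 24150924, lay under a peak in 1 proestrus cocaine library, although a region beginning there (chr17:24150587-24152931) was called in all 17, with its summit 1418 bp before the start site and a median fold enrichment of 4.75. Fold enrichment there ranged from 2.87 (diestrus cocaine library 3) to 6.05 (diestrus cocaine library 1). A neighbouring region (chr17:24149706-24150090) was called in 3 libraries, diestrus control 2 at 2.57 and proestrus controls 1 and 2 at 2.53 and 2.55, which rests on 21 to 23 reads at the summit. No cocaine library and no male library called it. Among 20617 other regions at promoters of protein-coding genes, 8 had the same calls in all 17 libraries. Among them were Ip6k1, Tctn1, Grik5 and Xxylt1.

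Away from start sites, the strongest Pdpk1 region by median (15.6, chr17:24070734-24075437) lay over the gene's 3′ end and is shared with the promoter of the neighbouring gene Kctd5, so its signal cannot be assigned to Pdpk1. The intron region at 41.6 kb from the 5′ end (chr17:24108692-24109957) had fold enrichments of 12.01, 13.2 and 14.7 in diestrus controls, 16.5, 8.55 and 5.74 in diestrus cocaine, 8.76, 9.51 and 8.91 in proestrus controls, 10.52, 8.77 and 7.33 in proestrus cocaine, 9.56, 6.20 and 9.44 in male controls and 10.6 and 9.65 in male cocaine libraries. Diestrus controls lay above all other controls, and both male cocaine libraries lay above all male controls.

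**Figure D1:**
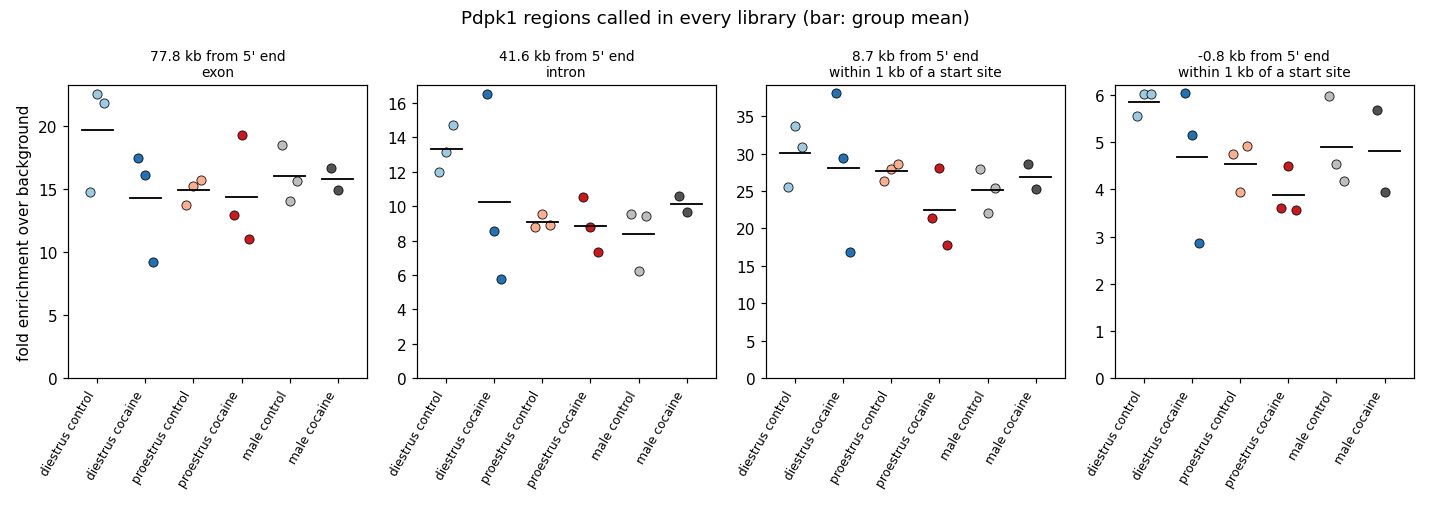
Fold enrichment (no unit) at the 4 Pdpk1 regions called in every library, 1 panel per region, by group; points are libraries and bars are group means. The intron region at 41.6 kb shows diestrus controls at 12.01 to 14.7, above the other controls (6.20 to 9.56), while at the main start sites (8.7 kb) each cocaine group overlaps its controls.

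Akt1 (chr12:112653821-112674884, minus strand) held 23 regions, 11 kept and 2 called everywhere. Its promoter region (chr12:112671870-112676696) had a median fold enrichment of 5.49, and the other, over the 3′ end (chr12:112651598-112654571), one of 4.92. Both ranged over similar values, 3.45 to 7.84 and 3.56 to 7.36. At 3 further Akt1 start sites regions were called in 5, 2 and 2 libraries, with no group complete.

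Akt2 (chr7:27591552-27640826, plus strand) held 26 regions, 9 kept and 3 called everywhere. The main promoter (chr7:27589373-27595804) had a median fold enrichment of 16.7 and ranged from 10.3 to 26.2. The 3′ region (chr7:27639485-27643841) had a median of 6.67. A region between them (chr7:27597321-27604357), with its summit 3904 bp before the nearest start site, had fold enrichments of 15.4, 19.99 and 22.1 in diestrus controls and 18.5, 8.43 and 6.20 after cocaine. In proestrus it had 15.7, 15.5 and 12.7 in controls and 9.21, 8.88 and 10.1 after cocaine. In males it had 18.1, 11.02 and 16.58, and 12.9 and 12.3 after cocaine. The proestrus groups did not overlap, and in diestrus 2 of 3 cocaine libraries lay below all controls.

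Around this region Akt2 start sites were called in some libraries only. A region over the start site 27596830 (chr7:27595816-27597201) was called in all 6 female controls, at fold enrichments of 2.49 to 3.25, and in no female cocaine library and no male library. The next (chr7:27604419-27606383) was called in all 9 controls and in 1 of the cocaine libraries of each sex and stage, and the region at 43.7 kb (chr7:27635125-27635444) in the 3 proestrus controls alone, at 2.85, 3.95 and 3.51.

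Mtor (chr4:148448611-148557683, plus strand), the kinase itself, held 44 regions, 22 kept and 7 called everywhere. Its promoter (chr4:148447223-148450566) had the second highest median among the 30 regions, 22.997, with values of 21.0, 25.7 and 25.9 in diestrus controls, 32.8, 23.6 and 16.2 after cocaine, 22.1, 21.7 and 17.9 in proestrus controls, 15.7, 25.2 and 14.3 after cocaine, 25.4, 22.997 and 24.6 in male controls and 27.1 and 22.1 after cocaine. All cocaine groups overlapped their controls. The other 6 had medians of 3.72 to 8.12, and the strongest of these (chr4:148557344-148559084) is shared with the promoter of Exosc10.

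Rptor (chr11:119602905-119899576, plus strand), the scaffold of complex 1 and the longest of the 8 genes, held 58 regions, 34 kept and 8 called everywhere. The promoter (chr11:119602215-119603782) had a median fold enrichment of 10.4 (8.15 to 13.9). A region at an internal start site 208 kb into the gene (chr11:119810253-119811884) reached 9.68 (4.94 to 16.5), and another at 193 kb (chr11:119792800-119799014) 7.87 (4.82 to 11.1). Of the regions away from start sites, the exon region at 294.4 kb, near the 3′ end (chr11:119896781-119897740), had the highest median, 6.28.

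Rictor (chr15:6708379-6800401, plus strand), the scaffold of complex 2, held 34 regions, 13 kept and 1 called everywhere, its promoter (chr15:6706922-6710858). Fold enrichment at the promoter was 5.42, 6.48 and 5.92 in diestrus controls and 8.78, 13.7 and 11.1 after cocaine. It was 6.23, 6.15 and 6.92 in proestrus controls and 8.81, 10.1 and 8.17 after cocaine, and 6.76, 10.7 and 8.01 in male controls and 6.56 and 5.81 after cocaine. In both female stages all cocaine libraries lay above all controls, and in males both cocaine libraries lay below all controls. These values are not adjusted for differences between whole libraries. Over all regions called in every library, median fold enrichment was 5.347 to 5.575 in male cocaine libraries and 7.436 to 8.031 in male controls. The strongest other region, over an exon at 87.6 kb (chr15:6795573-6796403), was called in 15 libraries with a median of 3.40.

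Tsc1 (chr2:28641228-28691167, plus strand) held 18 regions, 7 kept and 2 called everywhere, and Tsc2 (chr17:24595816-24632630, minus strand) held 14, 8 kept and 3 called everywhere. The Tsc1 promoter (chr2:28639742-28643411) had a median fold enrichment of 15.3 and a narrow range, 11.3 to 19.9. The Tsc1 exon region at 44.2 kb (chr2:28684355-28686455) had 5.49, 5.92 and 5.78 in proestrus controls and 3.51, 3.85 and 4.50 after cocaine, without overlap. The Tsc2 promoter (chr17:24631832-24634076), which it shares with the DNA repair gene Nthl1, had a median of 6.04, below that of a region 2.4 kb upstream (chr17:24634094-24636048), 9.40. The region at the other end of Tsc2 (chr17:24592956-24600114) is shared with Pkd1.

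The share of kept regions called was compared across groups, over the 8 genes together and gene by gene. These counts include the kept Pdpk1 start-site regions, whose calls chose the list, and are a description. Over the 116 regions, female controls called 77, 92 and 87 (diestrus) and 78, 75 and 87 (proestrus), and cocaine libraries 89, 63 and 45 (diestrus) and 62, 70 and 62 (proestrus). Male controls called 82, 52 and 70, and male cocaine libraries 55 and 53. In proestrus every cocaine library called fewer member regions than every control, whereas over all kept regions the mean shares were 53.2% in controls and 56.9% after cocaine. In diestrus and in males the groups overlapped. Diestrus cocaine library 1 stood apart from the other 2 with 89 calls, and it also called the most of all kept regions in its group (66.1% against 52.9% and 45.6%).

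Rictor went the other way. Of its 13 kept regions, the 3 proestrus controls called 3, 3 and 4 and the proestrus cocaine libraries 10, 7 and 10. Diestrus libraries called 9, 6 and 6 without and 9, 8 and 8 with cocaine, and male libraries 7, 6 and 6 without and 3 and 5 with cocaine. Over the 103 regions of the other 7 genes, proestrus controls called 75, 72 and 83 and proestrus cocaine libraries 52, 63 and 52. The Rictor gene window had the lowest GC content of the 8 (40.0%, against 43.9% to 56.6%). Counts over 3 against 3 libraries cannot reach an exact permutation p below 0.1, two-sided, nor can 3 against 2, and no test was made of them.

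**Figure D2:**
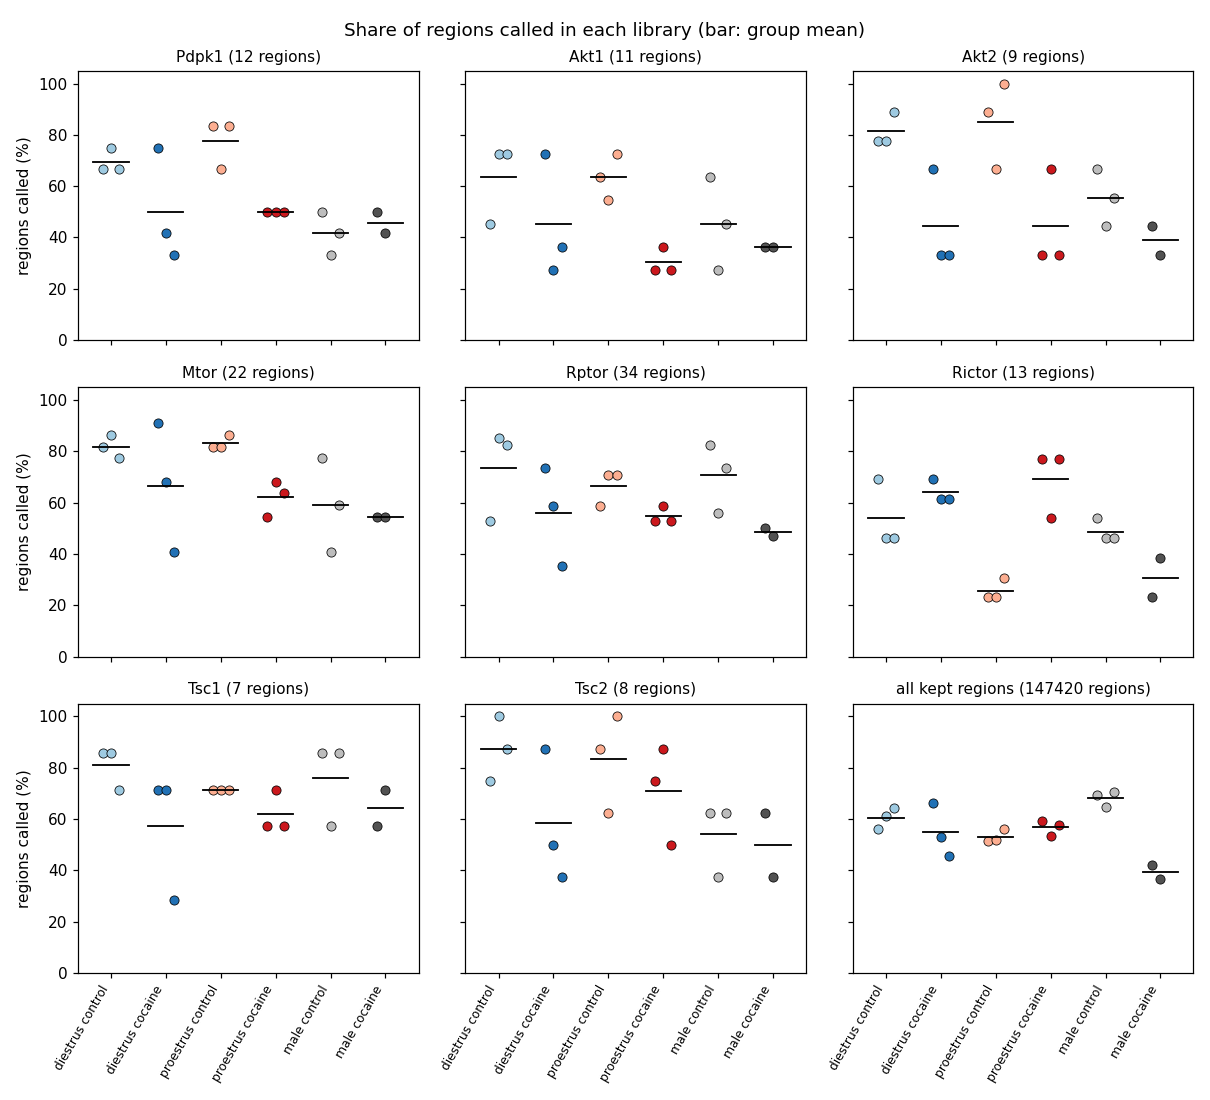
Percent of a gene's kept regions called (vertical axis) in each library, by group, in 1 panel per gene and 1 for all 147420 kept regions; points are libraries and bars are group means. In proestrus, Akt1 falls from a mean of 63.6% in controls to 30.3% after cocaine, while Rictor goes from 25.6% to 69.2%. The Pdpk1 panel includes the start-site regions whose calls chose the list.

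Calls that separated cocaine from control libraries completely were counted in each sex and stage, as a description. In diestrus 0 member regions were gained, called in all 3 cocaine libraries and no control (1.16% of all kept regions were), and 3 were lost (1.26%). These 3 were the Akt2 region at 5.0 kb, an Mtor intron region at 24.8 kb (chr4:148473214-148473669) called at 3.10, 2.79 and 3.42 in diestrus controls, and a Rictor exon region at 61.3 kb (chr15:6769387-6769897) called at 4.002, 3.24 and 2.49 in diestrus controls and in no other library. Leaving out a library loosens the rule of complete separation, so such counts, here and below, rise by construction. No share of all regions with the same library left out is given beside them. Without diestrus control 1, diestrus control 3 or diestrus cocaine 1, the lost count was 9, 5 or 11. Without diestrus cocaine 2 or 3 the gained count was 2 or 1.

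In proestrus 3 member regions were gained (2.45% of all kept regions) and all 3 were Rictor introns. The region at 7.8 kb (chr15:6715550-6716836) was called at 3.51, 3.10 and 2.62 in proestrus cocaine libraries and in no proestrus control, but also in all 6 diestrus libraries. That at 9.1 kb (chr15:6716957-6718054) was called at 3.10, 3.21 and 2.41, and that at 23.8 kb (chr15:6731715-6732653) at 3.40, 2.89 and 2.93; outside proestrus, each was called in 3 libraries. The 4 lost regions (1.64%) were Akt2 at 5.0 and 43.7 kb, the Mtor exon region at 14.8 kb (chr4:148463003-148463722) and the Rptor intron region at 173.7 kb (chr11:119776470-119776783). Without proestrus control 1, proestrus control 2 or proestrus cocaine 2, the lost count was 10, 11 or 9, and without proestrus cocaine 2 the gained count was 5.

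In males 0 member regions were gained (1.66%) and 2 were lost, against 16.8% of all kept regions. Both lay in Rptor. The region at 255.2 kb (chr11:119857770-119858488) was called at 6.63, 4.68 and 5.49 in male controls, and that at 257.2 kb (chr11:119859639-119860545) at 4.72, 2.89 and 3.51, and neither in a male cocaine library. Without male control 2, male cocaine 1 or male cocaine 2 the lost count was 14, 5 or 4, and without male control 1 or male cocaine 1 the gained count was 2.

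**Figure D3:**
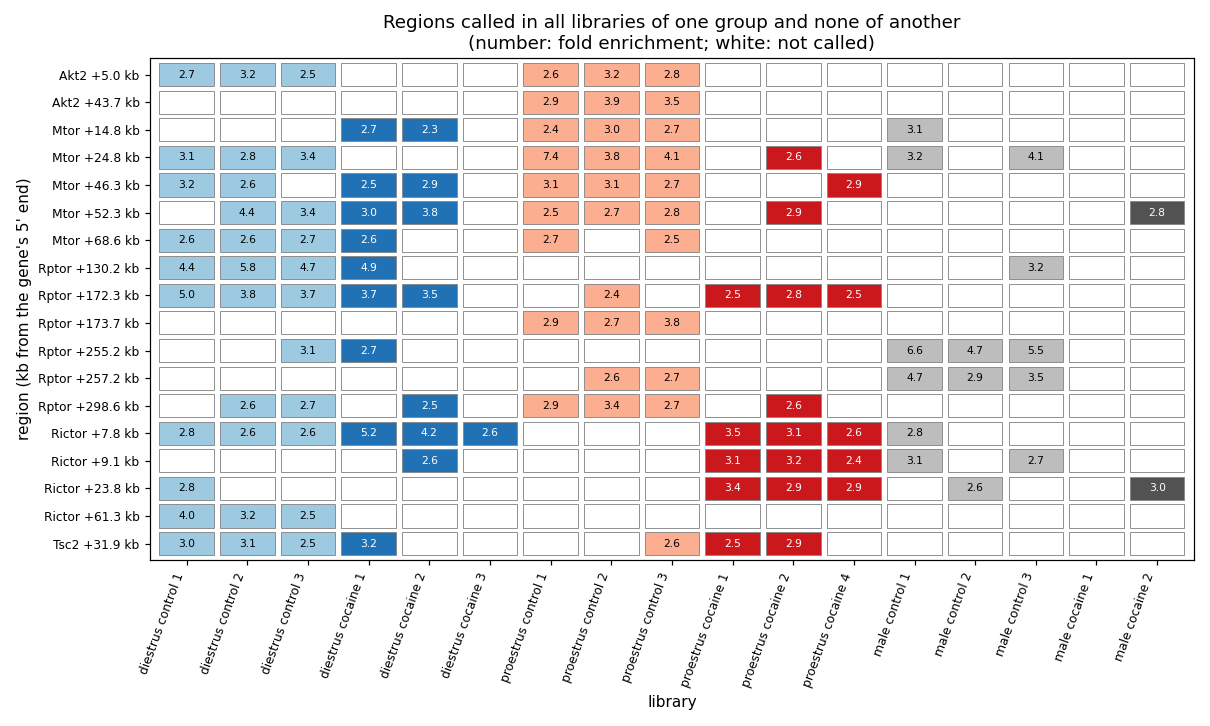
The 18 member regions (rows, with the distance of their middle from the gene's 5′ end in kb) that were called in all libraries of 1 group and in none of a group compared with it, across the 17 libraries (columns); each filled cell carries the fold enrichment and a white cell was not called. The Akt2 region at 5.0 kb is filled in the 6 female controls alone, and the Rictor regions at 7.8, 9.1 and 23.8 kb are filled in all 3 proestrus cocaine libraries and no proestrus control.

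Between control groups, member regions called in females and not in males outnumbered the converse, whereas over all kept autosomal regions it was the other way. For proestrus against males this rested on how peaks were chosen, with 0 against 1 at a −log10 q of at least 5 and 1 against 1 with equal numbers of strongest peaks. Called in all 3 diestrus and no male controls were 5 (3.06% of all): Akt2 at 5.0 kb, Mtor at 68.6 kb, Rptor at 172.3 kb, Rictor at 61.3 kb and Tsc2 at 31.9 kb. Called in male and not in diestrus controls was 1 (9.04%), Rptor at 257.2 kb. Called in proestrus and not in male controls were 6 (1.43%): Akt2 at 5.0 and 43.7 kb, Mtor at 46.3 and 52.3 kb, and Rptor at 173.7 and 298.6 kb. Called in male and not in proestrus controls was 1 (10.5%), Rptor at 255.2 kb. Both comparisons share the male controls, and without male control 2 the counts of regions called only in males were 5 and 8. Of those called in diestrus only there were 14 without diestrus control 1 and 9 without diestrus control 3 or male control 1, and of those called in proestrus only 14 without proestrus control 2.

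Diestrus and proestrus controls were separated by 3 regions in each direction (4% and 0.788% of all). Rptor at 130.2 kb and Rictor at 7.8 and 61.3 kb were called in diestrus only, and Akt2 at 43.7 kb, Mtor at 14.8 kb and Rptor at 173.7 kb in proestrus only. Leaving out 1 control library took the counts to as many as 7 in either direction. The count was 7 without diestrus control 1 and 5 without proestrus control 3 for regions called in diestrus only, and 7 without proestrus control 1 and 5 without proestrus control 2 for the converse.

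Over all libraries, cocaine was compared with control by Fisher's exact test (two-sided) at regions called in 4 to 13 libraries. None of the 45 member regions tested passed a Benjamini-Hochberg adjusted p of 0.05 (0.00% of 64304 regions did; the smallest adjusted p among members was 0.217). At an unadjusted p under 0.05, 5 were called less often after cocaine (9.23% of all) and 0 more often (3.81%). Of the 45, 35 had the smaller share in cocaine libraries. This count was not made over all regions, so it is not read as a result about the members. Over all kept regions, mean shares called after cocaine and in controls were 39.3% and 68.3% in males and 54.9% and 60.5% in diestrus. In proestrus they were 56.9% and 53.2%. The Mtor region at 24.8 kb was called in 1 of 8 libraries after cocaine and in 8 of 9 controls (exact p = 0.00337, adjusted p = 0.217). The Akt2 regions at 5.0 kb (0 of 8 against 6 of 9) and 13.8 kb (3 of 8 against 9 of 9) each had an exact p of 0.00905. The remaining 2 were Rptor regions, at 71.6 kb (4 of 8 against 9 of 9) and 257.2 kb (0 of 8 against 5 of 9).

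Fold enrichment was compared with limma at the 36847 regions called in all 17 libraries, after each library's log2 values had been centred on their median, and adjusted by Benjamini-Hochberg over all of them. Of the 30 member regions there, 28 were tested, the 2 Pdpk1 start-site regions being left out because calls at that promoter chose the list. Values below are centred log2 differences with their SE. Without centring, the median of all regions moved by 0.03 in diestrus, 0.09 in proestrus and −0.40 in males, and most calls at member regions were lost; each such count is given beside the main one.

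In diestrus, the Rictor promoter rose and 4 member regions fell after cocaine, against 6.16% and 4.90% of all regions. The Rictor promoter differed by 0.88 ± 0.19 (adjusted p = 0.00441), that is 1.84-fold, with 3 of 3 cocaine libraries above all controls. The Akt2 region at 9.3 kb differed by −0.96 ± 0.19 (adjusted p = 0.00331). The others were the Rptor exon region at 294.4 kb (−0.70 ± 0.19, adjusted p = 0.0177), the Tsc2 upstream region (−0.66 ± 0.18, adjusted p = 0.0211) and the region that Pdpk1 shares with Kctd5 (−0.51 ± 0.17, adjusted p = 0.0407). The median over the 28 was −0.27, against 0.01 over all regions, and 26 had a negative difference. Signs were not counted over all regions, so that count is not read as a result about the members.

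Of these 5, the Rictor promoter (0.90, adjusted p = 0.0218) and the Akt2 region (−0.94, adjusted p = 0.0361) also passed without centring. The count of 5 rested on single libraries: it was 12 without diestrus cocaine 1, 0 without diestrus cocaine 2 (the library whose stage came from its title), 1 without diestrus cocaine 3, and 2 without diestrus control 2 or control 3. The Rictor promoter then differed by 0.77 (adjusted p = 0.0553) without diestrus cocaine 2 and 0.70 (adjusted p = 0.0638) without diestrus cocaine 3, and the Akt2 region by −0.79 (adjusted p = 0.0521) without diestrus cocaine 2.

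In proestrus 2 member regions fell (1.85% of all did) and 0 rose (1.55%). They were the Akt2 region at 9.3 kb (−0.74 ± 0.19, adjusted p = 0.0262) and the Tsc1 exon region (−0.65 ± 0.17, adjusted p = 0.0288), each lower in 3 of 3 cocaine libraries than in any control. The Rictor promoter did not pass (0.38, adjusted p = 0.237), although its groups did not overlap. The median over the 28 was −0.20, against −0.02 over all. Without centring 0 passed, and the count was 0 without proestrus control 1, control 2 or cocaine 1, 1 without control 3 or cocaine 4, 5 without proestrus cocaine 2, and 4 without diestrus cocaine 1, diestrus cocaine 3 or male control 2.

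In males 7 member regions were higher relative to other regions after cocaine (5.56% of all were) and 0 were lower (4%). The largest difference was in the Pdpk1 intron at 41.6 kb, 0.78 ± 0.20 (adjusted p = 0.0122). Among the rest were Mtor at 43.6, 64.7 and 109.6 kb (0.52 to 0.69) and Rptor introns at 135.5 and 186.2 kb (0.59 each). The Rictor promoter did not pass by centred values (0.05 ± 0.21, adjusted p = 0.904). The median over the 28 was 0.42, against 0.09 over all regions. Uncentred, the median of the 28 was −0.07 against −0.40 over all and these 7 differed by 0.03 to 0.30 with none passing. The region downstream of Rptor at 304.2 kb then passed as lower (−0.66, adjusted p = 0.0181). The window at its summit (chr11:119907175-119907375) lay beyond the gene's 5 kb flank, so its signal cannot be assigned to Rptor.

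With 2 male cocaine libraries, the count of 7 was also unsteady. It was 0 without male control 2, male cocaine 1 or male cocaine 2, 1 without male control 3, and 11 without diestrus cocaine 3 or proestrus cocaine 2. For the Pdpk1 start-site regions, given as description, the male differences were 0.59 at the main sites and 0.45 at the 5′ end centred, and 0.10 and −0.03 uncentred.

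**Figure D4:**
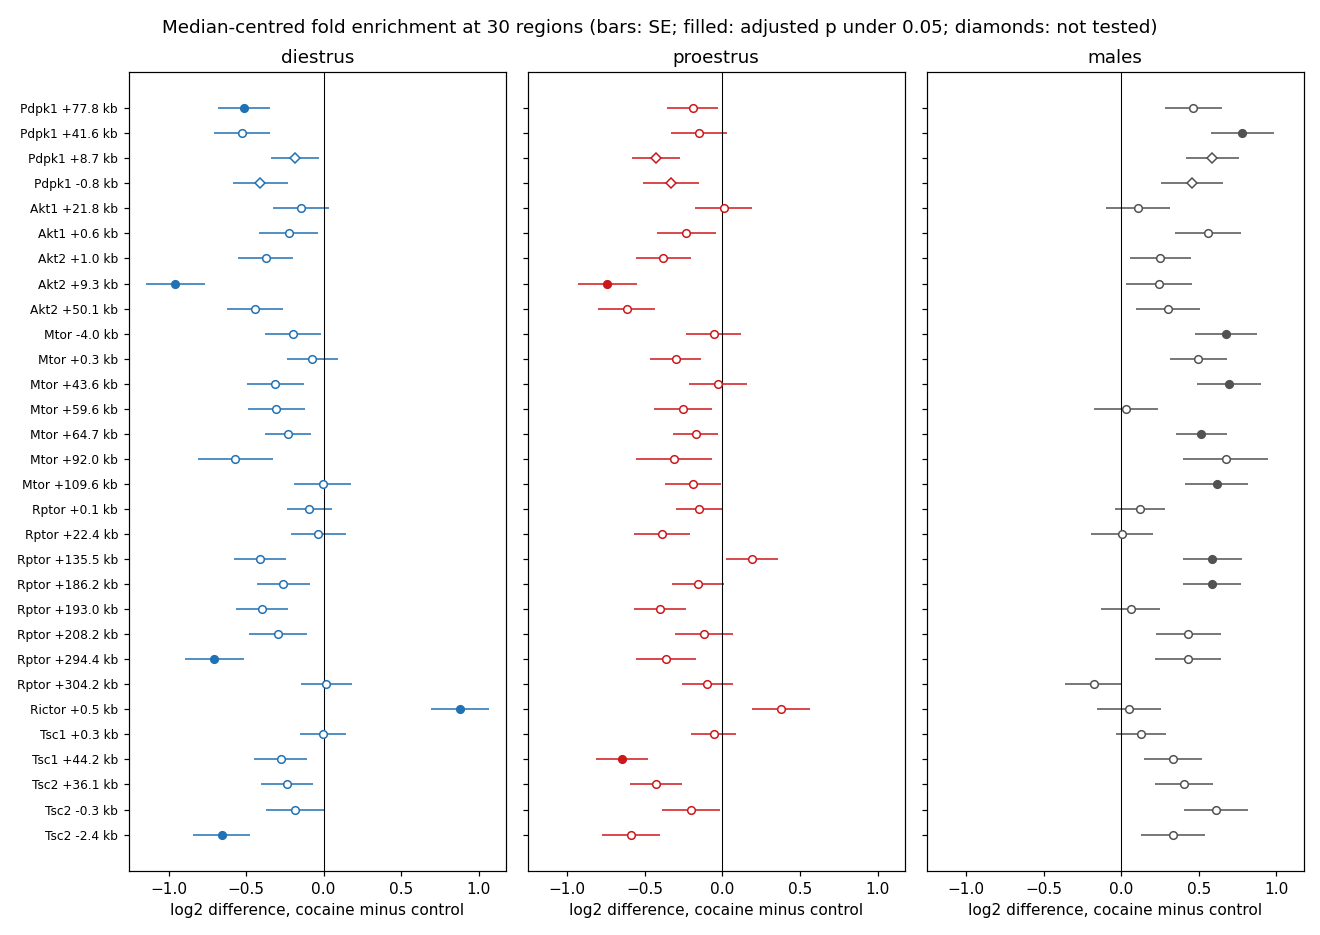
Centred log2 difference in fold enrichment, cocaine minus control (horizontal axis), at the 30 member regions called in every library (rows, with distance in kb from the gene's 5′ end), in 1 panel each for diestrus, proestrus and males; bars are SE, filled points passed an adjusted p of 0.05 and diamonds are the 2 untested Pdpk1 start-site regions. Most points lie left of 0 in females (26 and 25 of the 28 tested) and right of 0 in males (27 of 28), and the Rictor promoter is the highest point in diestrus (0.88). Signs were not counted over all regions, so these counts are not read as a result about the members. Uncentred, the median of the 28 in males was −0.07.

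The difference between the sexes in the cocaine effect was tested directly, as the male effect minus the mean effect of the 2 female stages. It was higher at 18 of the 28 member regions (11.9% of all regions) and lower at 0 (6.53%), with a median of 0.73 against 0.07 over all. The largest values were in the Pdpk1 intron (1.12 ± 0.24, adjusted p = 0.00229), the Mtor exon region at 92.0 kb (1.11 ± 0.32, adjusted p = 0.0157) and the Akt2 region at 9.3 kb (1.09 ± 0.25, adjusted p = 0.00396). Akt1, Akt2, Mtor, Rptor, Tsc1, Tsc2 and Pdpk1 each had at least 1 such region and Rictor had none.

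Uncentred, the 18 differences were smaller but of the same sign (0.14 to 0.57) and none of the 18 passed. The Rictor promoter (−1.13, adjusted p = 0.00125) and the region downstream of Rptor (−0.68, adjusted p = 0.0320) then passed as lower. The count of 18 was 5 without male cocaine 1 and 10 without male cocaine 2 or male control 2. The effect in diestrus minus that in proestrus passed at 0 of the 28 (0.00% of all regions higher and 0.00543% lower; 1 member at an unadjusted p under 0.05, and the smallest adjusted p among members was 0.730). The Akt2 and Rictor results in 1 stage were thus not shown to differ from those in the other.

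Before cocaine, 12 member regions were lower in males than in diestrus females (13% of all regions were) and 0 were higher (10.9%), and 6 were lower than in proestrus females (8.79%) with 0 higher (5.87%). The male controls are shared by both. The Mtor regions at 43.6 and 64.7 kb, the Pdpk1 intron, the Tsc1 exon region and the 3′ region of Tsc2 passed in both; the first differed by −0.90 ± 0.18 from diestrus (adjusted p = 0.000615) and by −0.67 ± 0.18 from proestrus (adjusted p = 0.0126). Without centring 3 remained lower than in diestrus (Mtor at 43.6 kb, Rptor at 186.2 kb and the Pdpk1 intron) and 0 than in proestrus. Without male control 2 the counts were 4 and 2, without diestrus control 3 the first was 6, and without proestrus control 1 or 2 the second was 3 or 2.

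Diestrus and proestrus controls differed at 0 of the 28 member regions by limma (0.214% of all higher in diestrus and 0.103% lower; 1 member at an unadjusted p under 0.05). The differences ranged from −0.33 to 0.52 and the smallest adjusted p was 0.144.

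Of the 63 other genes of the pathway, 59 had promoter regions called everywhere (68 regions). Genes are counted here and below, while the shares beside them are of all 36847 regions, whatever their position. No share over promoters alone was counted. By region the diestrus counts were the same, 10 and 3 of the 68. In diestrus after cocaine 10 of the 59 rose and 3 fell, beside 6.16% and 4.90% of all regions, and uncentred 3 of the 10 (Foxo1, Rraga and Rps6) and none of the 3 passed. Among those that rose were Foxo1, a transcription factor that Akt holds out of the nucleus (0.71, adjusted p = 0.00412), Rraga, a Rag GTPase that recruits complex 1 to lysosomes (0.72, adjusted p = 0.00452), and Pik3r1, a regulatory subunit of phosphoinositide 3-kinase (0.48, adjusted p = 0.0410). Lamtor3, Prkaa1, Rps6, Rragc, Sesn1 and Tti1 also rose. Those that fell were Akt1s1, which encodes an inhibitory subunit of complex 1 (−0.54), Gsk3a, a kinase that Akt inhibits (−0.51), and Mlst8, a subunit of both complexes (−0.56). The Akt1s1 and Gsk3a regions were wide (chr7:44844426-44874893 and chr7:25231426-25253682). As the strongest peak of a region was taken, their values may come from outside these promoters and cannot be assigned to the 2 genes. In proestrus 0 of the 59 passed.

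In males 2 of the 59, Foxo3 (0.56) and Rragc (0.52), were higher relative to other regions after cocaine (5.56% of all regions were), but differed by 0.08 and 0.03 uncentred, where neither passed. The male minus the female effect was higher at 9 of the 59, beside 11.9% of all regions, among them Akt1s1 (0.88), Mlst8 (0.87) and Gsk3a (0.79), with none of the 9 passing uncentred and Pik3r3 changing sign there (0.50 centred and −0.04 uncentred). The rest of the 9 were Castor2, Nprl2, Rps6kb2, Telo2 and Ulk1. As with Akt1s1 and Gsk3a, the Nprl2 region was wide (chr9:107535249-107561315), and its value cannot be assigned to that gene. It was lower at Inpp4b, a lipid phosphatase (6.53% of all regions were lower), both centred (−0.73) and uncentred (−1.27). Among controls, males were lower than diestrus females at 4 of the 59 and higher at 4, by centred values (13% and 10.9% of all regions). They were lower than proestrus females at 2 and higher at 1 (8.79% and 5.87%). Akt1s1 and Foxo3 were lower, and Deptor, an inhibitor of mTOR, was higher, against both female stages. Of these 3, only Deptor passed uncentred (0.63 and 0.91).

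Base composition moved with the cocaine differences over all regions and is given beside the members. The median GC content was 49.2% in the 116 kept member regions and 44.4% in all kept regions. In proestrus the median difference of all regions went from 0.17 in the lowest of 10 equal bins of GC to −0.15 in the highest, and in males from 0.03 to 0.20. In diestrus it was 0.13 in the lowest bin, −0.10 in bin 9 and −0.02 in the highest. Regions gained in proestrus over the whole genome had a median GC of 39.5% and those lost 48.4%. Gained and lost regions had 40.96% and 43.1% in diestrus and 29.7% and 44.3% in males. With the GC trend of each library removed, a setting added after the data were seen, the median of the 28 members went to −0.23 in diestrus, −0.17 in proestrus and 0.31 in males, and 6, 2 and 7 passed. The Rictor promoter (52.6% GC) then differed by 0.95 in diestrus (adjusted p = 0.00277).

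**Figure D5:**
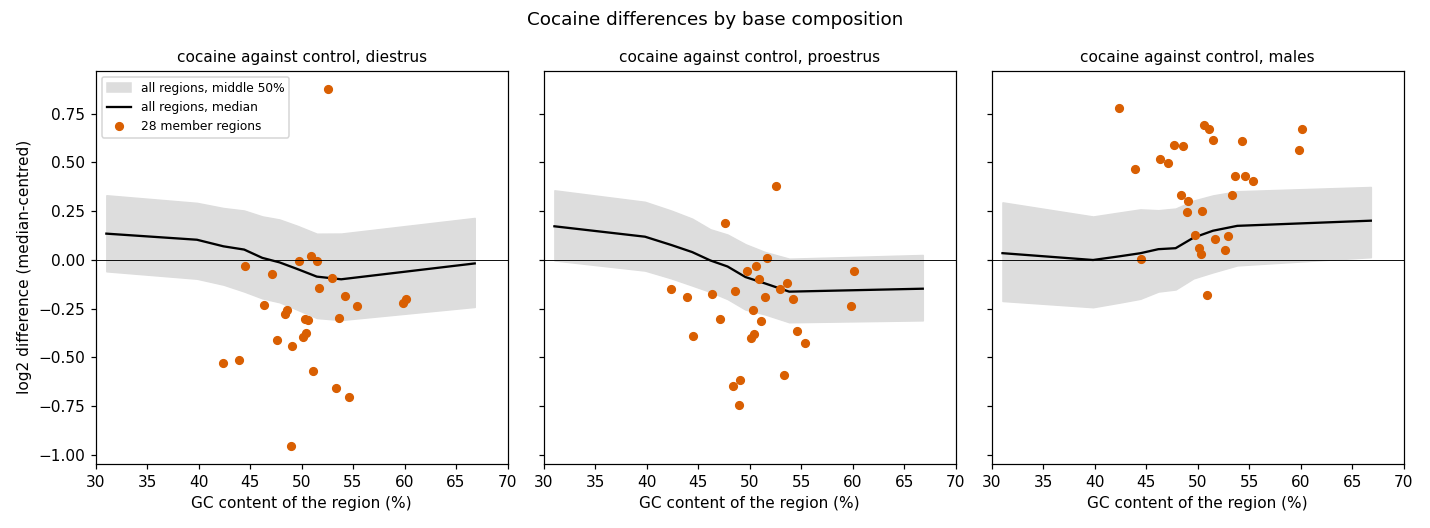
Centred log2 difference in fold enrichment, cocaine minus control (vertical axis), against the GC content of the region in percent (horizontal axis), for diestrus, proestrus and males; the line is the median and the band the middle 50% of all 36847 regions in 10 equal bins of GC, and points are the 28 member regions. In proestrus the line falls from 0.17 to −0.15, in males it ends at 0.20, and the single high point in diestrus is the Rictor promoter (0.88).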

How the data were processed

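Per the labels and the study's methods, the authors removed adapters, used BWA-MEM for alignment to mm10 and ran MACS2 on every library separately; versions and options are not given in the sources used here. Each deposited peak carried a score (10 times its −log10 q, rounded down by the authors) and −log10 values of p and q. Its fold enrichment was a ratio of summit pileup to background, with a small constant added to each. No total read number was used. In each library, 100% of the fold values checked were whole multiples of a step, so the background was a constant of the library. The step gave each library's background pileup. The authors' later read counting and DESeq2 test were not used here.

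Sequence and annotation were GRCm38 with GENCODE transcripts. Peaks were merged over libraries, and a region was kept where 2 libraries of 1 group called it. Fold enrichments at regions called in all 17 libraries were compared with limma 3.58.1 (R 4.3.3) in 1 fit over the 6 groups on median-centred log2 values, with Benjamini-Hochberg adjustment at 0.05. Calls were compared with Fisher's exact test (scipy 1.17.1). The tests were checked on simulated data. The number of libraries limits the precision. A few items counted in totals are not reported here by name. The members and gene lists were chosen with earlier results of these data known. Values are given for regions within 1 kb of a start site, regions that separated groups or passed limma, and each gene's strongest other region. For the Pdpk1 start-site region called in a number of libraries nearest to the middle, up to 5 promoters with the most similar calls are named. Alternatives covered the scaling, a replicate block, stricter peaks, regions called in at least 15 libraries, other windows and bins, and single libraries left out.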

Additional observations from a re-analysis of the deposited data

Results flagged for a closer look

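The cocaine effect in males differed from the mean effect in the 2 female stages, by limma's test of the difference itself on centred log2 fold enrichment (Benjamini-Hochberg adjusted p of 0.05), at 18 of 28 member regions. Of these 18, 17 are given by position. At Mtor the difference was 0.68 at the promoter, 0.86 at 43.6 kb, 0.72 at 64.7 kb, 1.11 at 92.0 kb and 0.71 at 109.6 kb (shared with Exosc10). At Rptor it was 0.70 at 135.5 kb, 0.80 at 186.2 kb and 0.97 at 294.4 kb. At Akt2 it was 1.09 at 9.3 kb and 0.83 at 50.1 kb, and at the Akt1 promoter 0.79. At Pdpk1 it was 1.12 in the intron and 0.82 at the region shared with Kctd5. At Tsc1 it was 0.80 at the exon region, and at Tsc2 0.74 at the 3′ end, 0.80 at the promoter and 0.96 upstream. All 18 were positive, 11.9% of all regions passed in this direction, and without centring none of the 18 passed.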

How the results depend on the processing

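No member region changed sign between settings among those that had passed. Without centring, the numbers passing fell from 5, 2 and 7 to 2, 0 and 1 for cocaine in diestrus, proestrus and males, from 12 and 6 to 3 and 0 for males against diestrus and proestrus controls, and from 18 to 2 for the difference between the sexes; the shift of whole libraries that centring removes is the construction of that setting. In males, 3 passed with quantile normalization and 4 when regions called in at least 15 libraries were tested. With GC content adjusted, chosen after seeing the data, no count moved by over 1.5 times. Same-numbered samples were not treated as pairs in the main fit. Correlations of their deviations were −0.29, 0.02 and −0.14 for diestrus, 0.20 and 0.12 for proestrus and 0.02 for both male pairs. With 2 or 3 libraries in a group, these values cannot show whether the numbers mark a shared batch. With a replicate block 1 region passed in proestrus and 3 in males, and the other counts stayed within 1.5 times.

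Leaving out 1 library, the numbers passing ranged from 0 to 12 in diestrus, 0 to 5 in proestrus, 0 to 11 in males, 4 to 13 for males against diestrus controls, 2 to 8 for males against proestrus controls and 5 to 21 for the difference between the sexes. Regions gained and lost after cocaine ranged, for diestrus, from 0 to 2 and 3 to 11, for proestrus, from 3 to 5 and 4 to 11, and for males, from 0 to 2 and 2 to 14. Between controls the ranges were 1 to 5 (males only) and 5 to 14 (diestrus only), 1 to 8 (males only) and 6 to 14 (proestrus only), and 3 to 7 for diestrus only and for proestrus only. Leaving out a library loosens the rule of complete separation, and no such count fell below its main value.

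Counts of separated regions moved with how peaks were chosen. With a −log10 q of at least 5, diestrus had 1 gained and 1 lost, proestrus 1 gained, males against diestrus 0 and 2, and proestrus had 0 against males (with 1 the other way) and 0 against diestrus. With 75458 strongest peaks per library (75 member regions), diestrus had 1 gained (1.56%) and 1 lost (1.19%), and proestrus 0 gained (2.42%). Males had 3 gained (4.14%), 1 lost (9.50%) and 0 against diestrus (8.17%). Proestrus had 1 against males (1.92%), with 1 the other way (8.255%), and 1 against diestrus (0.984%). Counted as runs of 200 bp bins, a finer unit with more features, diestrus had 1 gained and 14 lost, proestrus 32 lost, males 1 gained and 8 lost, males 3 against diestrus and 28 the other way, males 3 against proestrus and 35 the other way, and diestrus and proestrus controls 6 and 8. No share over all bins was counted for this setting. Apart from what the settings' construction shows, the cause was not tested. Calls in some libraries only rested on 17 to 69 reads at the summit, and the part of depth in them was not tested.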

Other observations

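Some of the 106 kept regions at promoters of other pathway genes also separated groups completely, as a description. Of all kept regions, 16.8% were lost after cocaine in males, 1.64% in proestrus and 1.26% in diestrus. Among all kept autosomal regions in controls, 9.04% were called in males and not diestrus, and 10.5% in males and not proestrus. The share was 1.43% for proestrus and not males, 3.06% for diestrus and not males, and 3.996% for diestrus and not proestrus. Whether these promoters differed from those shares was not tested. The promoter of Eif4ebp1 had 2 regions called in all 3 male controls and in no female control or male cocaine library, at median fold enrichments of 4.59 and 4.27. Regions at Rhebl1, a relative of Rheb, and Rps6kb2, a kinase that complex 1 activates, were called in the 3 proestrus controls and in no proestrus cocaine or male library. Regions at Sgk1, a kinase activated by complex 2, and Nprl3, a subunit of a complex that restrains complex 1, were called in all male controls and in no male cocaine library. A region at Tfeb, a lysosomal transcription factor, was called in the 3 diestrus controls and in no diestrus cocaine library or proestrus library. Regions at Pik3cd and Gsk3a were called in all 3 diestrus controls and in no male library.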
